A study of Mus musculus with 43 samples.

Results

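Blood vessel genes were followed through sorted cortical neuron libraries as a set of 36 genes, 25 of them endothelial and 11 mural, out of 56980 genes in the count table. The members were chosen by name, and each name matched 1 row. The 43 libraries were made from GFP+ cells sorted by flow cytometry from the somatosensory cortex of C57BL/6JRccHsd mice after in utero electroporation, which aims the reporter at layer 2/3 (L2/3) neurons. At E19, the last days before birth, WT, Cux1 KO and Cux2 KO mice gave 4 libraries of each sex. At P4, WT and Cux2 KO mice gave 3 libraries of each sex and Cux1 KO males gave 2, and at P7 WT mice gave 2 female and 3 male libraries. Cux2 KO mice were germline Cux2-/- at both stages. Cux1 KO mice were germline Cux1ΔC/ΔC at E19, which die around birth, and Cux1 f/Δ23 mice electroporated with pCAG-iCre at P4. The WT, Cux1ΔC/ΔC and Cux2-/- brains received pCAG-GFP alone, whereas the Cux1 f/Δ23 brains received the Cre-dependent reporter pCALNL-GFP, so that at P4 the Cux1 genotype cannot be told apart from the allele, the reporter or Cre. E19 libraries were sequenced in one round and P4 and P7 libraries in another, so that stage and round cannot be told apart. GEO's labels call the libraries replicates without saying whether each came from its own animal, and p-values measure only the spread between these libraries.

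Endothelial cells line the vessels, and in the brain they build the blood-brain barrier from tight junctions such as those of claudin 5 and from transporters that feed the tissue. Mural cells, the pericytes and smooth muscle cells, wrap the endothelium and are recruited through the PDGF receptor Pdgfrb. Vessels keep growing into the mouse cortex around birth, guided by VEGF, angiopoietin, Notch and Wnt signals. Neurons are not known as the main source of most of these transcripts, so the levels describe RNA in the sorted preparation. Some members are also known in other cells of the cortex, among them Slco1c1 and Slc2a1 in astrocytes and Notch3 in neural progenitors. In bulk libraries, fewer cells of a type and less RNA per cell cannot be told apart.

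The depth was 13321095 to 20715732 counts in E19 libraries, 19499125 to 60559585 in P4 libraries and 15312029 to 27633827 in P7 libraries. Levels are given as CPM, counts scaled to the library total with TMM factors over all libraries. A defining gene of the labelled cell type was low and at 0 in some postnatal libraries: Slc17a7, the vesicular glutamate transporter of cortical excitatory neurons, was at 4.48 to 18.2 CPM in E19, 0 to 9.17 CPM in P4 and 0 to 1.65 CPM in P7 libraries. The astrocyte water channel Aqp4 was at 10.4 to 38.8 CPM, 220 to 1349 CPM and 1101 to 2229 CPM at the same stages. Counts summed over the whole gene do not check the genotypes, since Cux1 ran from 291 to 367 CPM in the Cux1 KO and from 311 to 491 in WT at E19, and was 84.5 and 179 CPM in the Cux1 KO males at P4 against 90.5 to 161 in WT. Cux2 was at 268 to 410 CPM in the Cux2 KO and 330 to 507 in WT at E19, and at 28.9 to 62.1 against 27.9 to 49.7 at P4.

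At E19 the barrier transporters and a few mural genes had the highest medians. Slco1c1, a thyroid hormone transporter, had a median of 109 CPM over the 24 E19 libraries. Slc2a1, the glucose transporter of the barrier, had a median of 45.6 CPM, and Mfsd2a, which carries lysophospholipids with omega-3 fatty acids, one of 26.9. Among the mural genes, Notch3, a Notch receptor of smooth muscle cells and pericytes, had a median of 47.6 CPM, and Pdgfrb one of 27.5. The vessel-defining genes were lower, with medians of 5.58 CPM for Cldn5, 1.33 for the adhesion molecule Pecam1 and 0.165 for the sialomucin Emcn. Per kb of exon, the mean level in WT E19 females was 14.6 CPM for Slco1c1, 9.75 for Mfsd2a, 8.48 for Slc2a1 and 4.70 for Notch3.

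**Figure D1:**
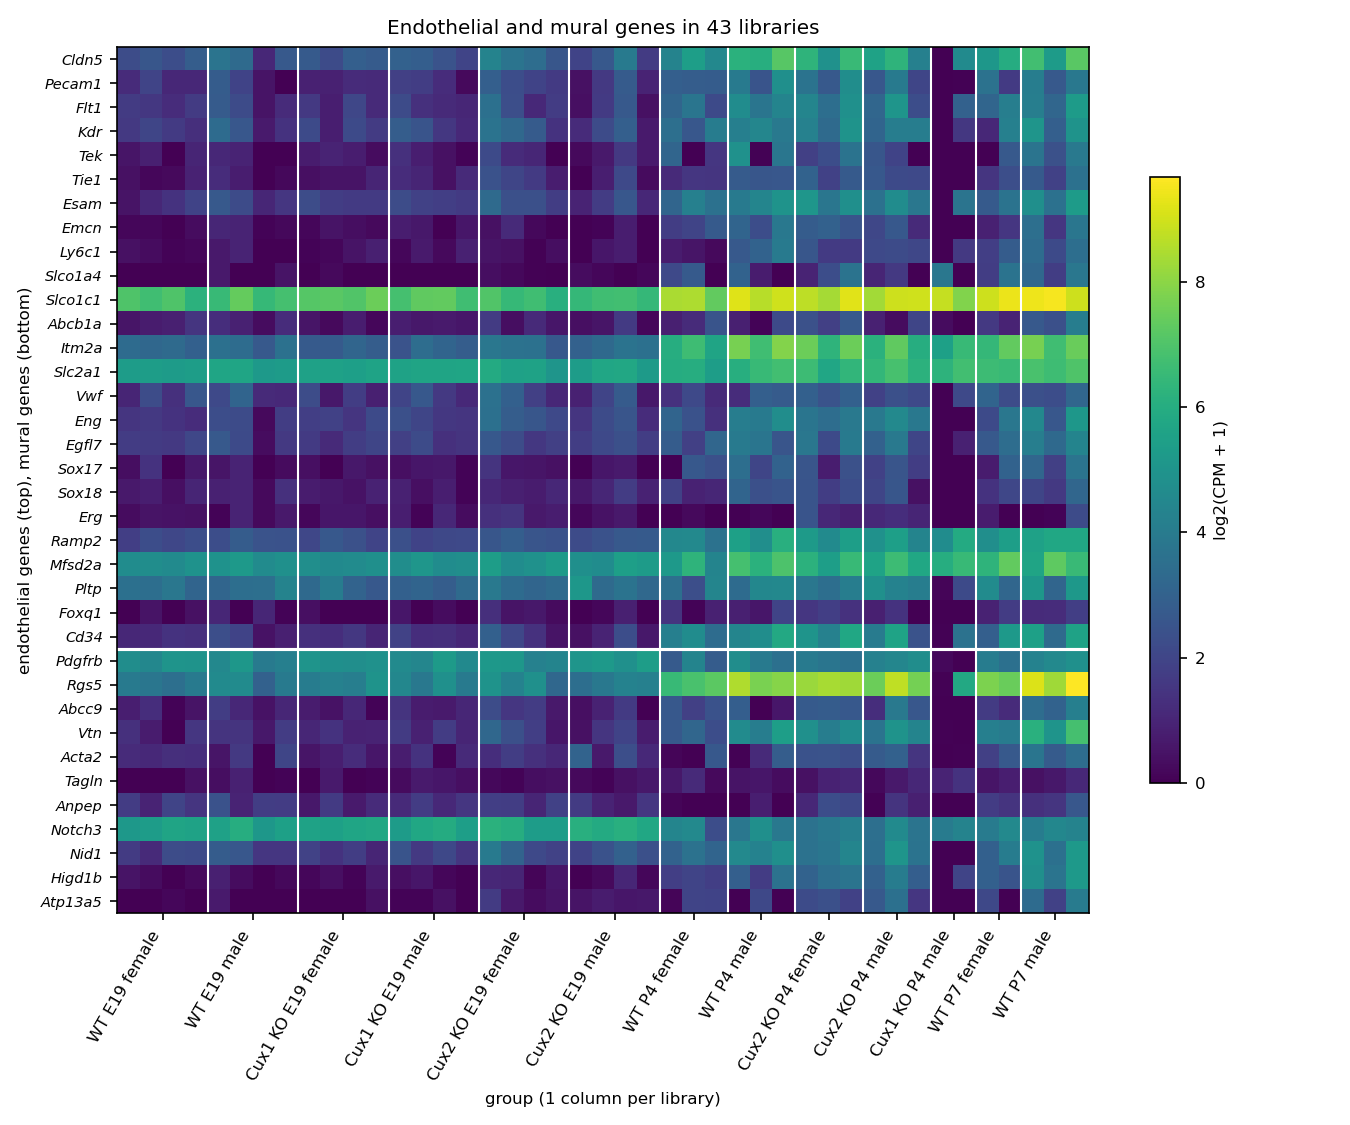
Levels of the 36 members in each of the 43 libraries, as log2(CPM + 1), with genes in rows (endothelial above, mural below) and libraries in columns ordered by stage, genotype and sex. Most rows are darker at E19 than at P4 and P7, Notch3 and Pdgfrb run the other way between E19 and P4, and 22 and 12 of the 36 members were at 0 counts in the 2 Cux1 KO P4 columns.

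One E19 library stood apart for these genes. Cux2 KO female replicate 1 had the highest level of the 24 libraries for 21 of the 36 members. In it Cldn5 reached 19.1 CPM, against 12.1, 9.85 and 4.96 in the other 3 Cux2 KO females and 3.75 to 6.19 in WT females. WT male replicate 3 had 9 members at 0 counts, more than any other E19 library. At P7, WT male replicate 3 had the highest level of 5 libraries for 28 members, and female replicates 1 and 2 had the lowest for 21 and 11.

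Between E19 and P4 most members rose in the WT and in the Cux2 KO, the genotypes compared between these stages. The Cux1 KO, which differed in allele between the stages and had only males at P4, was not compared. In the WT, 24 of 32 tested members were DEGs, 22 higher and 2 lower at P4. A DEG here passed an adjusted p of 0.05 and an absolute log2FC of 1 in edgeR's quasi-likelihood test with sex as a covariate. Of all genes tested, 46.3% were DEGs, 22.6% higher and 23.7% lower at P4. In the Cux2 KO, 25 of 35 tested members were DEGs, 24 higher and 1 lower, against 47.9% of all genes, 23.3% higher and 24.6% lower. The median log2FC of the tested members was 2.17 in the WT and 1.79 in the Cux2 KO, against 0.03 and 0.05 over all genes tested.

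The endothelial genes rose or did not pass the test, and none fell in either genotype by edgeR. Erg, too low for the filter of edgeR in the WT, was called lower there by DESeq2 (log2FC -2.97, SE 1.11). Cldn5, the claudin that seals the barrier, had values of 3.75, 4.94, 3.91 and 6.19 CPM in WT females and 12.3, 9.16, 1.11 and 5.48 in WT males at E19. At P4 its values were 18.9, 42.3 and 21.6 CPM in WT females and 71.2, 65.8 and 142 in WT males. Every P4 library of the WT was above every E19 library, and the log2FC was 3.15 (SE 0.42, adjusted p = 8.98e-06 in edgeR). Emcn, found on capillaries and veins, had the largest endothelial log2FC in the WT, 4.34 (SE 0.64), and rose by 3.92 (SE 0.76) in the Cux2 KO. The sialomucin Cd34 rose by 3.85 (SE 0.44) in the WT and 3.73 (SE 0.63) in the Cux2 KO. Itm2a, a membrane protein enriched in brain endothelium, rose by 3.69 (SE 0.28) and 3.57 (SE 0.27). The receptors of VEGF also rose, Flt1 by 2.41 (SE 0.45) and Kdr by 2.15 (SE 0.46) in the WT. The angiopoietin receptor Tek and its relative Tie1 were DEGs in the WT, at 3.67 (SE 1.30) and 2.67 (SE 0.68). Tek lost its call without WT P4 female replicate 1 (adjusted p = 0.0826) and without WT P4 male replicate 1 (adjusted p = 0.0538). In the Cux2 KO, the log2FC of Tek was 1.86 (SE 0.84, adjusted p = 0.0586 in edgeR) and that of Tie1 was 1.44 (SE 0.64, adjusted p = 0.0558), neither past the threshold. Slco1c1 rose by 1.76 (SE 0.22) in the WT and 2.19 (SE 0.16) in the Cux2 KO, and Mfsd2a by 1.28 (SE 0.27) and 1.01 (SE 0.20), the latter falling below the log2FC threshold in 7 of the 14 fits without 1 library, with values down to 0.86. Slc2a1 stayed under the log2FC threshold, at 0.74 (SE 0.14) and 0.85 (SE 0.17).

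Mural genes went in both directions. Rgs5, a regulator of G protein signalling and a pericyte marker, had values of 14.6, 12.9, 10.5 and 14.2 CPM in WT females and 23.8, 24.3, 7.03 and 14.7 in WT males at E19. At P4 the WT values were 89.9, 117 and 151 CPM in females and 369, 209 and 242 in males. The stages did not overlap, and the log2FC was 3.58 (SE 0.27) in the WT and 4.01 (SE 0.27) in the Cux2 KO. Higd1b, another pericyte marker, rose by 4.04 (SE 0.71) and 4.33 (SE 0.58). Vitronectin (Vtn), an adhesion protein that pericytes secrete, rose by 3.33 (SE 0.58) and 3.19 (SE 0.52), and the basement membrane gene Nid1 by 2.17 (SE 0.34) and 1.53 (SE 0.39). Notch3 fell, with a log2FC of -1.42 (SE 0.32) in the WT and -1.97 (SE 0.20) in the Cux2 KO. Pdgfrb, with a log2FC of -0.86 (SE 0.33) and -0.87 (SE 0.18), did not reach the threshold on the fold change. The aminopeptidase Anpep fell in the WT, with a log2FC of -4.26 (SE 1.16), and was not a DEG in the Cux2 KO, at -0.17 (SE 0.59). The contractile gene Acta2 was not a DEG, at 0.63 (SE 1.13) and 0.98 (SE 0.47), and Tagln was too low to be tested.

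**Figure D2:**
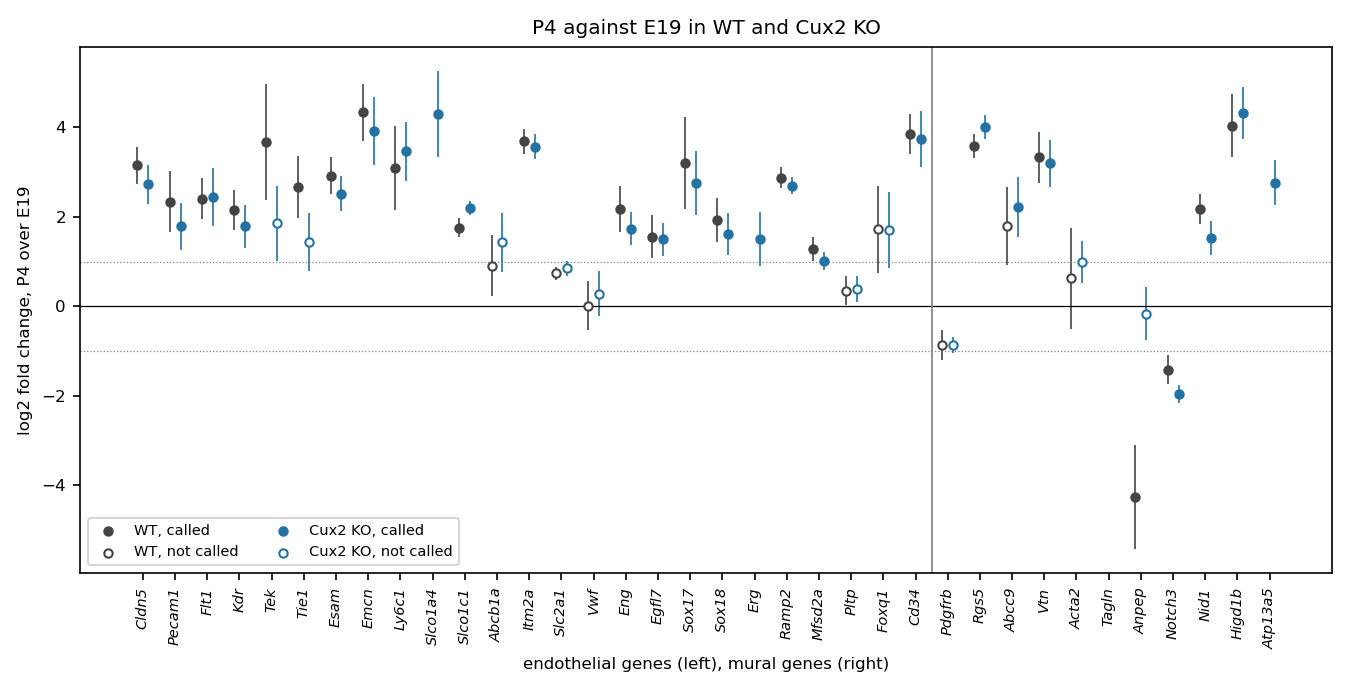
Log2FC of P4 over E19 with its SE for each member tested, in the WT (grey) and the Cux2 KO (blue), filled where the gene was a DEG. Points above 0 are higher at P4. In the WT the values run from -4.26 for Anpep to 4.34 for Emcn.

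Of the members, 20 rose in both genotypes, out of the 22 that rose in the WT and the 24 that rose in the Cux2 KO. Beside those named above they were the junction gene Esam, with a log2FC of 2.92 (SE 0.41) in the WT, Ramp2 with 2.88 (SE 0.24), Ly6c1 with 3.10 (SE 0.94), Pecam1 with 2.34 (SE 0.68), Eng with 2.18 (SE 0.52), Sox17 with 3.21 (SE 1.03), Sox18 with 1.92 (SE 0.49) and the secreted vessel factor Egfl7 with 1.55 (SE 0.48). Abcb1a, Acta2, Foxq1, Pdgfrb, Pltp, Slc2a1, Tagln and Vwf were DEGs in neither. By edgeR, Abcc9, Atp13a5, Erg and Slco1a4 were DEGs in the Cux2 KO and not in the WT, where Erg, Slco1a4 and Atp13a5 were too low to be tested. DESeq2 without its prior on fold changes called Slco1a4 (log2FC 6.04, SE 1.76) and Atp13a5 (4.36, SE 1.73) higher in the WT too, and a fit of all groups of both stages called these 2 and Abcc9 (1.73, SE 0.74). The call of Erg was lost in 6 of the 14 fits without 1 Cux2 KO library, with adjusted p of up to 0.157. The WT and Cux2 KO responses were compared directly in a model with an interaction of stage and genotype. No member of 36 differed in it at an adjusted p of 0.05, against 0.191% of all genes, and 2 members had an unadjusted p below 0.05, against 7.14%. DESeq2 called 1, against 0.479% of genes, which was Erg, a transcription factor of the ETS family that keeps endothelial identity.

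Wider lists of vessel genes were tested in the same fits. There 22.6% of all genes rose and 23.7% fell in the WT, and 23.3% rose and 24.6% fell in the Cux2 KO. Of the further endothelial markers tested, 18 of 24 rose and 2 fell in the WT, and 18 of 25 rose and 2 fell in the Cux2 KO. In the WT the log2FC was 4.93 for Sox7, a transcription factor related to Sox17 and Sox18, and 4.16 for the adhesion molecule Icam2, while Podxl and Rasip1 fell, at -2.66 and -1.28. Of the further mural markers, 9 rose and none fell in either genotype, with a WT log2FC of 2.96 for Kcnj8, the channel subunit that pairs with the member Abcc9. The signalling list went in both directions, near the shares over all genes. In the WT 6 of 20 tested rose and 5 fell, with log2FC of 5.09 for the apelin receptor Aplnr and 2.55 for the Tek ligand Angpt1, against -3.43 for Vegfa, the ligand of Flt1 and Kdr, and -3.44 for Tgfb1. Among the Wnt and barrier induction genes, 6 rose and 3 fell in the WT and 5 rose and 5 fell in the Cux2 KO. The WT log2FC was 4.05 for Tspan12, a coreceptor of norrin signalling, 4.11 for the Wnt effector Lef1 and -3.07 for the ligand Wnt7b. In the barrier junction and transport list, 11 of 21 rose and 3 fell in the WT, with 3.88 for the tight junction gene Ocln, 4.62 for the amino acid transporter Slc38a5 and 3.32 for Plvap, the diaphragm protein of leaky vessels.

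Genes of other cell types changed over the same interval. Of the upper-layer neuron markers, 11 of 14 fell and none rose in each genotype, and their summed level was 7258 to 9778 CPM at E19 and 1720 to 4369 CPM at P4. Of the astrocyte and radial glia markers, 7 of 10 rose and 1 fell in each genotype, with sums of 1602 to 2714 CPM at E19 and 5220 to 9510 at P4. Of the oligodendrocyte lineage markers 7 of 10 rose in each genotype and 1 fell in the WT. Their part in the change of the vessel genes was not tested. The summed level of the 25 endothelial members was 177 to 374 CPM at E19 and 400 to 1451 at P4, and that of the 11 mural members was 60.6 to 170 CPM at E19 and 16.5 to 579 at P4. Slco1c1, also known in astrocytes, was the largest part of the endothelial sum in each library. The endothelial sum need not follow the vessel-defining genes. In Cux1 KO P4 replicate 1 it was 670 CPM, 449 of it Slco1c1, while 16 endothelial members were at 0.

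**Figure D3:**
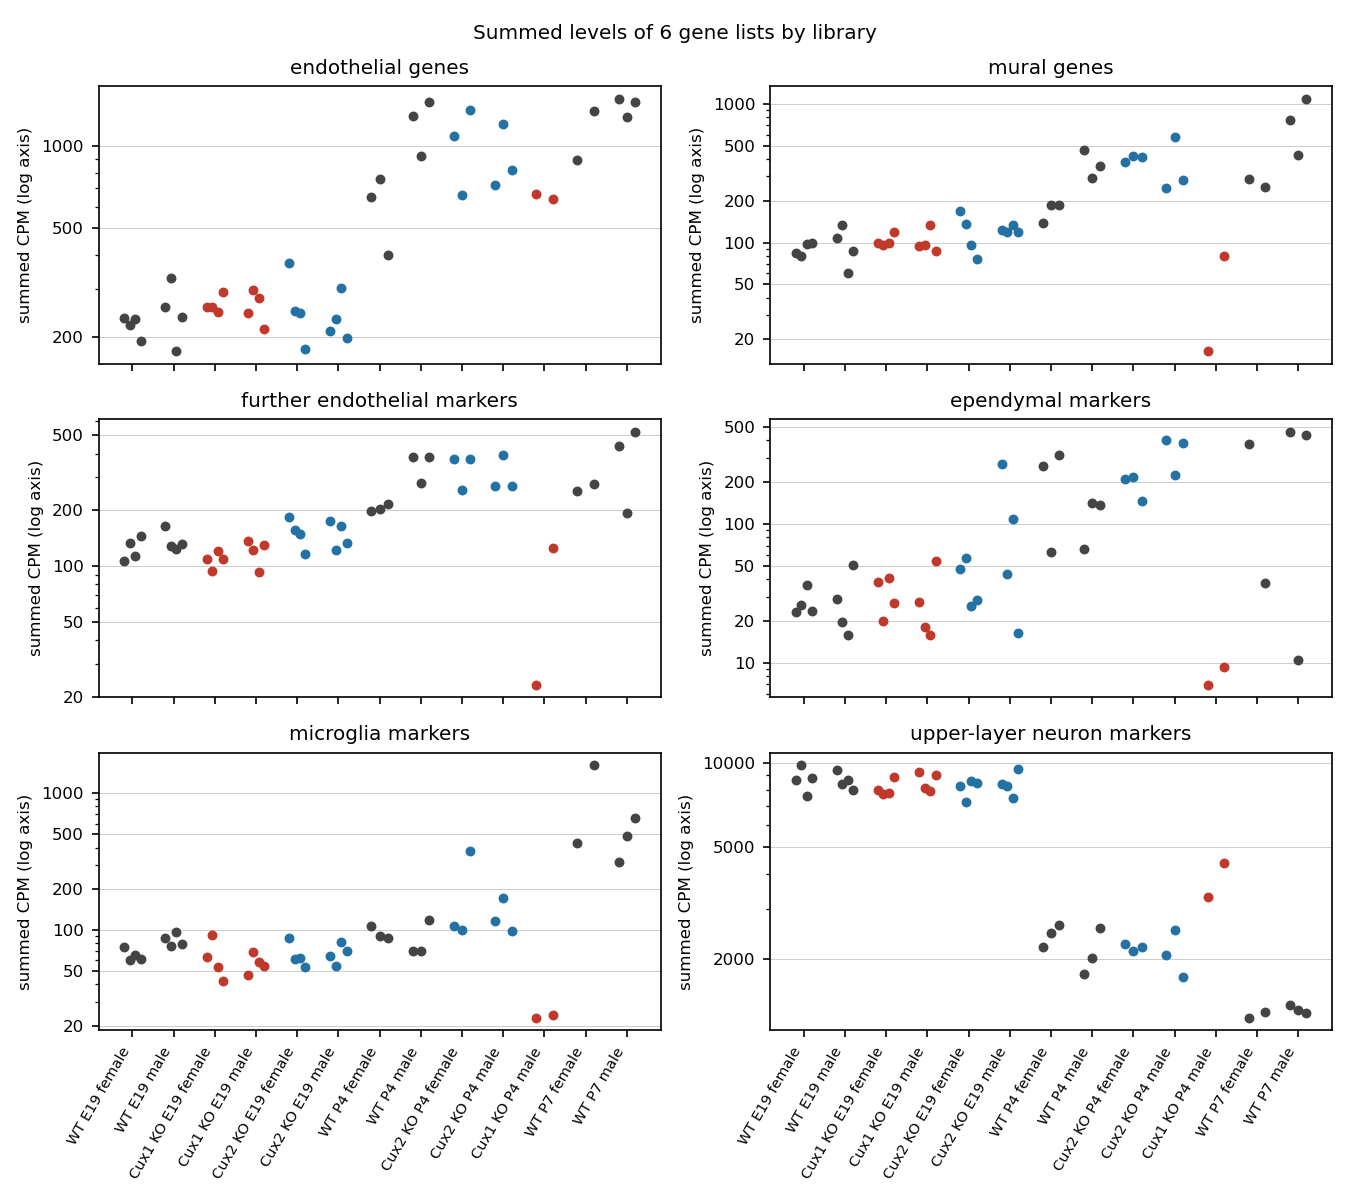
Summed CPM in each library, on a log axis, of the endothelial and mural members and of 4 other marker lists, by group. The 2 Cux1 KO P4 libraries have the lowest mural sums of P4, 16.5 and 80.3 CPM, together with the highest upper-layer neuron sums of P4, 3313 and 4369 CPM. The largest part of each endothelial sum is Slco1c1.

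Between P4 and P7 in the WT, 1 of 35 members tested changed, against 2.29% of all genes. Vtn had P4 values of 5.43, 8.10 and 3.93 CPM in females and 24.2, 16.1 and 41.7 in males, and P7 values of 17.0 and 15.3 CPM in females and 68.8, 31.2 and 112 in males. The stages did not overlap in females and overlapped in males, and the log2FC was 1.44 (SE 0.34, adjusted p = 0.0339 in edgeR). The call was lost in 8 of the 11 fits that left out 1 library and was kept without WT P4 female replicate 2, WT P4 male replicate 3 or WT P7 male replicate 2. DESeq2 called Vtn and Higd1b higher without its prior (2.59% of genes) and with it (1.14%). In edgeR, Higd1b had a log2FC of 1.60 (SE 0.42, adjusted p = 0.0502) and Rgs5 one of 0.92 (SE 0.26, adjusted p = 0.0622). Anpep was not a DEG, though each P7 library, at 1.51 to 5.18 CPM, was above each WT P4 library, at 0 to 0.753.

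In the Cux1 KO males at P4 many vessel genes had no reads. Of the 36 members, 10 had 0 counts in both libraries: the receptors Tek and Tie1, Emcn, the transcription factors Sox17, Sox18, Erg and Foxq1, and the mural genes Anpep, Nid1 and Atp13a5. Another 6 had 1 to 3 counts over both libraries, namely Pecam1, Eng, Pdgfrb, Abcc9, Vtn and Acta2, so that 9 endothelial and 7 mural members had 3 counts or fewer. Replicate 1, with 19499125 counts, had 22 members at 0 and replicate 2, with 40421655 counts, had 12, while the other 12 P4 libraries had 0 to 4. Fewer genes of any kind were detected in these libraries, 17049 and 19115 against 20844 to 23736 in the other P4 libraries, and the part of this in the missing members was not tested. Of the 33 members with a mean of 1 CPM or more in WT P4 males, 14 had 3 counts or fewer in the Cux1 KO, against 9.59% of the 17085 genes at that level, a cut-off chosen after the data were seen.

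The vessel-defining genes were lower by large factors. Nid1 was at 22.2, 18.7 and 27.4 CPM in the 3 WT males, at 10.3, 32.3 and 11.7 in the Cux2 KO males, and at 0 in both Cux1 KO males. With a floor of 3 counts per library, its WT level was at least 201-fold higher. Tek was at 28.8, 0.052 and 12.7 CPM in the WT males, a spread that included a library near 0, and its mean was at least 122-fold higher than the floor. The same bound was at least 73.8-fold for Emcn, 60.6-fold for Sox17, 48.3-fold for Sox18 and 47.3-fold for Tie1. Vtn, with 1 count over both Cux1 KO libraries, was 1766-fold lower than in the WT (95% counting interval 317 to 69766). Endoglin (Eng), a coreceptor of the TGF-beta family in endothelium, was at 15.99, 14.8 and 25.8 CPM in the WT and had 1 count, a ratio of 1184 (212 to 46793). Pecam1, at 14.4, 4.65 and 27.4 CPM in the WT, had 2 counts, a ratio of 520 (144 to 4299), and Pdgfrb, at 25.8, 14.3 and 10.7 CPM, had 3, a ratio of 337 (115 to 1635). These intervals and floors cover counting error only, and reads of PCR copies are not independent molecules.

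Other members differed between the 2 Cux1 KO libraries. Cldn5 was at 0 in replicate 1 and at 23.6 CPM in replicate 2, against 71.2, 65.8 and 142 CPM in WT males. Rgs5 was at 0.051 and 56.7 CPM, against 369, 209 and 242. Flt1, Kdr, Esam, Ly6c1, Vwf, Egfl7 and Higd1b were likewise at 0 in replicate 1 and detected in replicate 2. Replicate 2 held some endothelial and pericyte transcripts and no read of the 10 members at 0 counts.

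Some transporters, Ramp2 and the mural gene Notch3 were retained in both. Slco1c1 was at 449 and 229 CPM in the Cux1 KO, against 585, 399 and 506 in WT males. Slc2a1 was at 75.4 and 106 CPM, against 65.2, 90.9 and 106, a log2FC of 0.04 (SE 0.27, adjusted p = 0.956 in edgeR). Mfsd2a was at 63.8 and 89.4 CPM, against 110, 71.4 and 125. The receptor component Ramp2 was at 24.8 and 58.6 CPM, against 43.8, 26.4 and 67.0, and Notch3 at 15.2 and 18.9, against 13.3, 27.1 and 13.8. The groups overlapped for Slco1c1, Slc2a1, Mfsd2a, Ramp2 and Notch3. Itm2a was at 44.0 and 89.4 CPM, below 207, 103 and 234 in each WT male. Among the other transporters, Slco1a4 was at 13.4 and 0.025 CPM (263 counts and 1 count) and the efflux pump Abcb1a at 0.255 and 0.025 CPM (5 counts and 1 count).

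**Figure D4:**
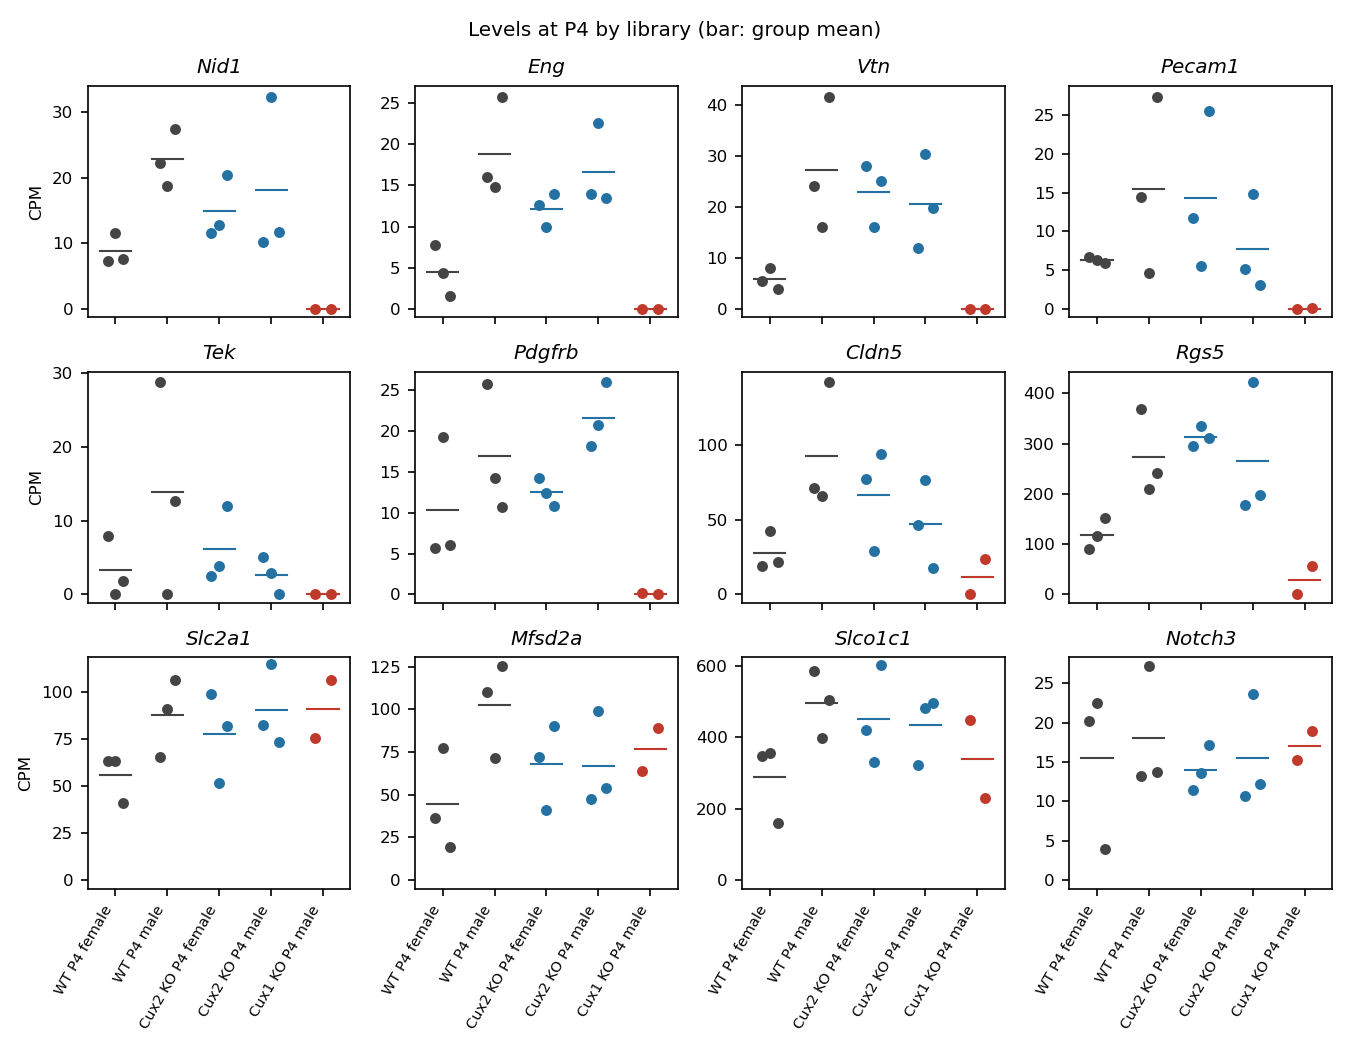
CPM of 12 members in each P4 library, with the group mean as a bar, in WT (grey), Cux2 KO (blue) and Cux1 KO (red) mice. Of the genes shown, Tek and Nid1 are at 0 in both Cux1 KO males, and Eng, Vtn, Pecam1 and Pdgfrb have 1 to 3 counts over both. Slco1c1, at 449 and 229 CPM, overlaps or comes near the other groups.

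No member was a DEG between Cux1 KO and WT males at P4 by edgeR, and 0% of all 19601 genes were, with 2 libraries against 3. Of the 33 members tested, 12 had an unadjusted p below 0.05, all lower in the Cux1 KO, against 12.3% of all genes. The smallest adjusted p of a member was 0.0764. In 22 members each Cux1 KO library was below each WT library, against 23.0% of all genes. Other models gave calls. A fit of all P4 groups, which borrows their spread, called 12 members lower (7.28% of genes tested), DESeq2 called 16 without its prior on fold changes (8.33%) and 10 with it (5.27%), and edgeR called 8 without Cux1 KO replicate 2 (2.85%), a fit that holds 1 Cux1 KO library and assumes that it varies like the WT. Genes of other cell types moved too. The summed ependymal markers were at 6.98 and 9.40 CPM in the Cux1 KO and 66.1 to 143 in WT males, the microglia markers at 22.8 and 23.8 against 69.8 to 118, and the upper-layer neuron markers at 3313 and 4369 against 1768 to 2562. Of the defining ependymal genes Foxj1 had no read in either Cux1 KO library. Their part in the difference was not tested.

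Against the Cux2 KO males of the same age, which share the Cux1 KO libraries with the comparison above but no WT library, 5 of 36 members were DEGs, all higher in the Cux2 KO, against 2.98% of all genes. They were Tie1, Eng, Sox17, Vtn and Nid1, with adjusted p of 0.0491 to 0.0498 in edgeR. Their Cux2 KO means were 4.06, 16.7, 3.25, 20.7 and 18.1 CPM. Tie1, Sox17 and Nid1 had 0 counts in the Cux1 KO, and the Cux2 KO level exceeded the floor by factors of at least 35.8, 28.7 and 159. In 21 members each Cux2 KO library was above each Cux1 KO library, against 25.8% of all genes, and 14 had an unadjusted p below 0.05 in that direction, against 15.5%. No call was left without any 1 of the 3 Cux2 KO males. With 1 Cux1 KO library, assumed to vary like the Cux2 KO, 7 calls were made without Cux1 KO replicate 1 (8.12% of all genes) and 19 without replicate 2 (15.3%). Of the other vessel lists, Apold1, S1pr3, Ednra, Angpt2, Ocln, Slc38a5 and Slc22a8 passed in the same direction.

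For the members with 0 counts in both Cux1 KO P4 libraries, promoter sequences are shown where RefSeq gave an entry and each WT P4 male had a read, which left Nid1, Tek, Emcn and Tie1. Each runs 5′ to 3′ on the gene's strand, from 250 bases before to 50 after the start, in GRCm38.p6. Capitals mark AGGAAG on either strand, which reads CTTCCT where it lies on the other strand. This is a motif of the ETS family, to which Erg belongs.
Nid1 (chr13:13437352-13437651, + strand): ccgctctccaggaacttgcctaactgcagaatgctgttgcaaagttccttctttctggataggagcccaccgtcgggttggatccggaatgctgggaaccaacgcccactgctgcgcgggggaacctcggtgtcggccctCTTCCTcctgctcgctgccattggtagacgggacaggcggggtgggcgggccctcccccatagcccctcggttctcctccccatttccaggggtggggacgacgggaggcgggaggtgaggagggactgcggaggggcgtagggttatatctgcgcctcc
Tek (chr4:94739039-94739338, + strand): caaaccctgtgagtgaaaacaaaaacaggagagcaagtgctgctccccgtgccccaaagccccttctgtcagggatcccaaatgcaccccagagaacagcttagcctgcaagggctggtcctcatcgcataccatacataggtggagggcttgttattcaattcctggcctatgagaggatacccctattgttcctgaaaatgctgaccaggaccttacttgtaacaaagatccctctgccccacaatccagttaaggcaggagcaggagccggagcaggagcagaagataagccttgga
Emcn (chr3:137340828-137341127, + strand): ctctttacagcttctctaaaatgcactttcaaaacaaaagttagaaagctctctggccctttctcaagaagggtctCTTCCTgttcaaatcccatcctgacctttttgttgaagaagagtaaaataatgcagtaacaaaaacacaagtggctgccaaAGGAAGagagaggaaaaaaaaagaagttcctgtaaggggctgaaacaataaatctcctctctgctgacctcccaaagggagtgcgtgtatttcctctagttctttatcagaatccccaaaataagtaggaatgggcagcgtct
Tie1 (chr4:118489800-118490099, - strand): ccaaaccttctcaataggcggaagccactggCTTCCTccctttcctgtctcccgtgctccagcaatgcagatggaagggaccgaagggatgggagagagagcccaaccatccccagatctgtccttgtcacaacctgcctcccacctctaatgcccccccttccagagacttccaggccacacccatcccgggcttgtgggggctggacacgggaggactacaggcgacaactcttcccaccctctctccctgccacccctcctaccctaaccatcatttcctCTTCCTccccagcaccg
The motif stood in the windows of Nid1, Emcn and Tie1 and not in that of Tek. Of the 26 members with an entry, 12 held it (46.2%), 10 of 18 endothelial (55.6%) and 2 of 8 mural (25%), against 35.4% of 32851 promoters of the same length. ATCGAT, a motif that CUX1 is known to bind, stood in 0 of 26 member windows and in 0.925% of all. These are matches of letters in a window and say nothing of binding.

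At E19, where the Cux1 KO was germline, no member was a DEG against WT (adjusted p of 0.05 and absolute log2FC of 0.5 in edgeR). Of 26 members tested in females none passed, against 0.0576% of all genes, and 3 had an unadjusted p below 0.05, against 6.87%. Of 27 in males none passed, against 0.0979%, and 1 had an unadjusted p below 0.05, against 10.4%. With both sexes in one fit, none of 27 passed, against 0.243%, and 5 had an unadjusted p below 0.05, against 12.9%. DESeq2 called none in these comparisons. In females, 3 of the 26 members had each Cux1 KO library above each WT library, and 0 had each below. These were Slco1c1, Slc2a1 and Rgs5, and the share over all genes was not computed. Slco1c1 was at 138, 144, 131 and 177 CPM in Cux1 KO females and 127, 103, 127 and 73.4 in WT females. In males 0 members were without overlap. Tie1 was at 0.330, 0.435, 0.439 and 1.03 CPM in Cux1 KO females and 0.357, 0.125, 0.189 and 0.902 in WT females, and the groups overlapped. The effect of Cux1 KO did not differ between the sexes for any of 28 members by edgeR's interaction test, against 0% of all genes, and 1 member had an unadjusted p below 0.05, against 3.81%.

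In the Cux2 KO females at E19 no vessel gene passed the adjusted test. None of 27 members was a DEG by edgeR, against 0.0287% of all genes, while 12 had an unadjusted p below 0.05, all higher in the Cux2 KO, against 2.96% of all genes in that direction. Of the 27, Eng and Ramp2 had each Cux2 KO library above each WT library, against 1.69% of all genes. The summed levels overlapped, at 180 to 374 CPM in the Cux2 KO and 194 to 233 in the WT for the endothelial members and at 76.3 to 170 and 80.1 to 99.8 for the mural members. Eng was at 11.01, 6.25, 5.08 and 3.43 CPM in Cux2 KO females and 1.79, 2.06, 1.70 and 1.32 in WT females. The groups did not overlap, and the log2FC was 1.90 (SE 0.35, adjusted p = 0.209 in edgeR). DESeq2 called 2 members without its prior (0.0829% of genes), Eng and Tie1, and 1 with it (0.0597%), and edgeR without a filter on low counts called 4 (0.133%). The library that stood apart, Cux2 KO female replicate 1, is in this comparison. In males none of 26 passed, against 0.121%, with 2 at an unadjusted p below 0.05 (7.94%), and with both sexes none of 27 passed, against 0.101%, with 4 (8.68%). The sexes did not differ in this effect for any of 32 members by edgeR's interaction test (0% of all genes), and 4 had an unadjusted p below 0.05, against 3.78%.

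At P4 no vessel gene passed the adjusted test between Cux2 KO and WT females either. No member of 36 was a DEG by edgeR, nor was any gene (0%). Higher levels with an unadjusted p below 0.05 were found in 15 members, against 4.56% of all genes, and 11 members had each Cux2 KO library above each WT library, against 7.40%. Rgs5 was at 295, 335 and 311 CPM in Cux2 KO females and 89.9, 117 and 151 in WT females, without overlap (log2FC 1.41, SE 0.20, adjusted p = 0.356 in edgeR). Vtn was at 28.0, 16.01 and 25.1 CPM against 5.43, 8.10 and 3.93 (log2FC 1.99, SE 0.34, adjusted p = 0.451), and Higd1b at 7.33, 10.6 and 12.2 against 2.47, 2.94 and 2.43 (log2FC 1.96, SE 0.30, adjusted p = 0.451). DESeq2 called these 3 genes with its prior (0.114% of genes), and 5 without it (0.481%), the others being Ly6c1 and Anpep. The endothelial and mural sums were 663 to 1358 and 383 to 420 CPM in Cux2 KO females, against 400 to 760 and 137 to 188 in WT females. Slco1c1, the largest part of the endothelial sum, was at 422, 329 and 602 CPM against 349, 355 and 160. Other lists moved as well. The log2FC was above 0 in 10 of 10 microglia markers (median 1.26) and in 10 of 10 oligodendrocyte markers (median 0.54), and 6 of 9 interneuron markers had an unadjusted p below 0.05 (median log2FC -0.61). The summed microglia markers were at 108, 100 and 377 CPM in Cux2 KO females, the last in replicate 3. In WT females they were at 107, 90.6 and 87.8 CPM, so the groups overlapped. The part of these lists in the difference was not tested.

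In Cux2 KO males at P4, none of 36 members was a DEG (0% of all genes by edgeR), and 2 had an unadjusted p below 0.05, one in each direction, against 5.76% of all genes. Erg was at 1.17, 1.38 and 1.00 CPM in the Cux2 KO and at 0, 0.130 and 0 in WT males. Ly6c1, a surface protein of brain endothelium, was at 3.36, 3.63 and 3.22 CPM in Cux2 KO males and 5.46, 7.30 and 15.0 in WT males. In females it went the other way, with 5.08, 2.09 and 2.12 CPM in the Cux2 KO and 0.679, 0.464 and 0.177 in the WT. Neither sex overlapped between genotypes, and the interaction of genotype and sex at P4 had an adjusted p of 0.554 in edgeR. Over all members that interaction called none of 36, against 0% of all genes, with 11 at an unadjusted p below 0.05, against 7.27%, and DESeq2 called Tie1, Ly6c1 and Vtn, 3 of 36, against 0.836%. With both sexes in one fit, none of 36 members was a DEG, against 0.0528%, 3 had an unadjusted p below 0.05, against 5.82%, and DESeq2 without its prior called 1, Erg, against 0.270%.

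Sex was compared within WT mice at each stage. At E19 none of 26 members was a DEG by edgeR, against 0.0461% of all genes, none had an unadjusted p below 0.05, against 3.67%, and DESeq2 called none. At P4 none of 34 was a DEG (0% of all genes by edgeR), but 11 had an unadjusted p below 0.05, all higher in males, against 3.78% of all genes, and 12 had each male library above each female library, against 8.20%. Cldn5 was at 71.2, 65.8 and 142 CPM in males and 18.9, 42.3 and 21.6 in females (log2FC 1.70, SE 0.41, adjusted p = 0.631 in edgeR). Vtn, at 24.2, 16.1 and 41.7 against 5.43, 8.10 and 3.93 CPM, had a log2FC of 2.18 (SE 0.44, adjusted p = 0.549), and Rgs5 one of 1.15 (SE 0.29, adjusted p = 0.653). Ly6c1 had the largest log2FC, 4.32 (SE 0.72, adjusted p = 0.549). Each of these did not overlap between the sexes. DESeq2 called 7 members higher in males without its prior (0.452% of genes), Cldn5, Tie1, Ly6c1, Itm2a, Rgs5, Vtn and Nid1, and 6 with it (0.234%). These WT females are also the controls of the Cux2 KO females above.

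**Figure D5:**
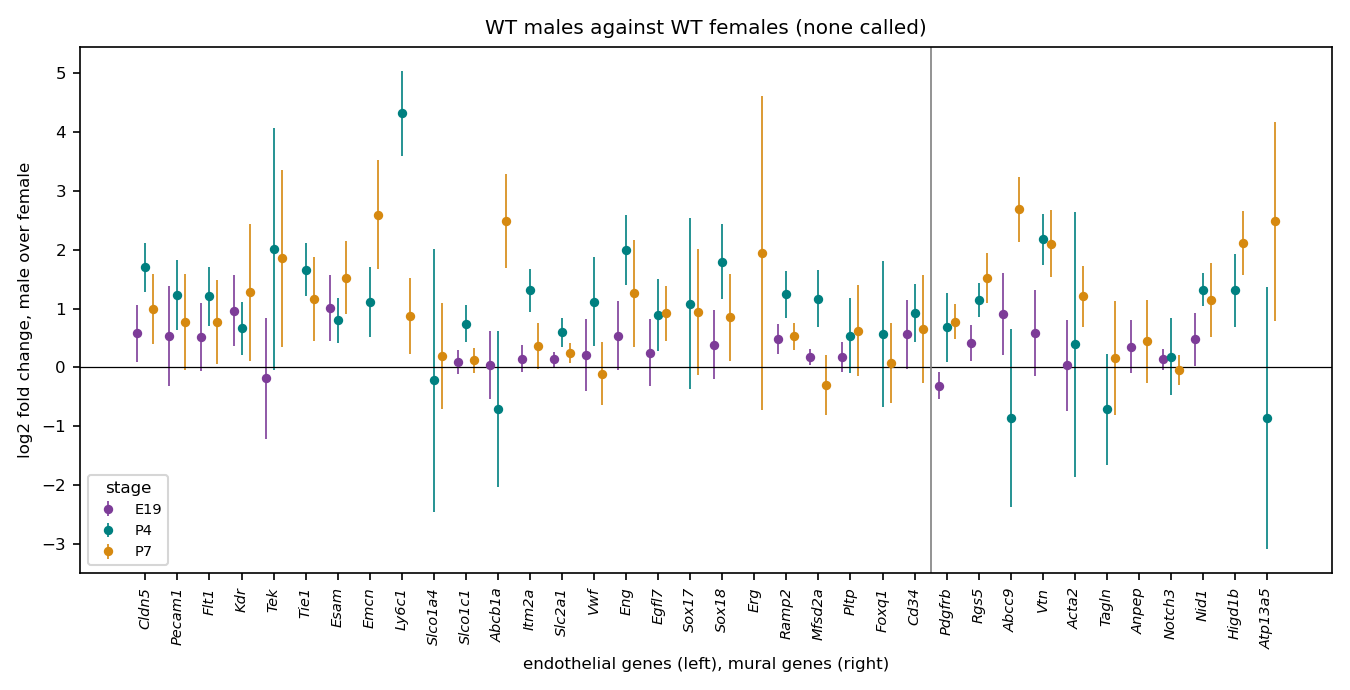
Log2FC of male over female with its SE for each member tested in WT mice at E19, P4 and P7. Points above 0 number 24 of 26 at E19. At P4 they number 29 of 34, and the P7 count is 33 of 36. Over all genes tested, 50.1%, 51.2% and 51.7% were above 0 at E19, P4 and P7. None was a DEG by edgeR.

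Depth and other marker lists moved with sex at P4. WT male totals were 35891853 to 60559585 counts and female totals 20919432 to 37079440. The summed oligodendrocyte markers were 3603 to 4451 CPM in males and 1465 to 3090 in females, and the interneuron markers 382 to 581 in males and 614 to 1174 in females. Their part in the sex difference was not tested. At P7, none of 36 members was a DEG by edgeR, against 0.0247% of all genes, 7 had an unadjusted p below 0.05, all higher in males (2.82%), and 10 did not overlap (11.4%). DESeq2 called 4 without its prior (0.182% of genes) and 0 with it (0.0206%). Rgs5 was at 571, 313 and 812 CPM in males and 214 and 173 in females, and the potassium channel subunit Abcc9 at 10.0, 7.28 and 17.0 against 2.20 and 1.30. Other lists moved with sex at P7 too: the log2FC was below 0 in 10 of 10 immediate early and dissociation genes (median -0.81) and in 10 of 10 microglia markers (median -1.05), and the 7 erythroid markers tested had a median of 4.33. The summed microglia markers overlapped, at 433 and 1598 CPM in females and 316, 490 and 658 in males. The part of these lists in the difference was not tested. The sex difference did not change between E19 and P4 for any of 35 members by edgeR's interaction test (0.0747% of all genes), with 2 at an unadjusted p below 0.05 (11.2%), nor between P4 and P7 for any of 36 (0%), with 1 (5.42%).

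Some members share bases with other genes. Of the 36, 19 overlap an exon of another gene in GENCODE M39, among them Eng with Fpgs, Acta2 with Stambpl1, Higd1b with Eftud2 and Ramp2 with Vps25. The strand setting of the counting is not stated, so reads of pairs on opposite strands cannot be told apart. Low levels of the overlapping members are uncertain. Vps25 lies on the same strand as Ramp2, so no strand setting separates reads in their shared bases. The Ramp2 levels in the Cux1 KO males at P4 carry this limit too. Cldn5 (GRCm39 chromosome 16, 18595597 to 18597012), Pecam1 (chromosome 11, 106543689 to 106641454), Tek (chromosome 4, 94627291 to 94763224), Emcn (chromosome 3, 137046794 to 137138999) and Vtn (chromosome 11, 78388717 to 78393156) have no such overlap.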

How the data were processed

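RNA was measured in 43 libraries of sorted GFP+ cells. Single-end reads of 60 nucleotides were mapped by the authors with hisat2 on GRCm39, masking the Y chromosome for females and its pseudoautosomal regions for males, removed duplicates above a ceiling, and deposited featureCounts counts per gene, whole numbers without normalization. No molecular identifiers were used.

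Members and gene lists were chosen with earlier results of these data known. Groups came from GEO's labels. Differences were tested with edgeR 4.0.16 (R 4.3.3): TMM scaling, filterByExpr, quasi-likelihood tests on the libraries of the groups compared, and Benjamini-Hochberg adjustment over all genes. A DEG had an adjusted p below 0.05 and an absolute log2FC above 0.5 at E19 or 1 otherwise, as in the study, and interactions needed the adjusted p alone. The steps were tested on simulated data.

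The alternatives were DESeq2 1.42.0 with and without its prior, its size factors in edgeR, no filter, no fold threshold, one fit for all groups of a stage, the replicate number as a block, and leaving out each library. Beyond members, genes named are list genes that were DEGs, the 6 of largest log2FC at most per direction, and defining genes. Positions and exon overlaps came from GENCODE M39, which held 56236 of 56980 gene identifiers. No pair of replicates agreed within sampling noise (53 pairs, chi-square per degree of freedom of at least 7.79). TMM factors ran from 0.941 to 1.10.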

Additional observations from a re-analysis of the deposited data

Results flagged for a closer look

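In the 6 groups of 4 libraries at E19, 21 of 228 readings (9.21%) had a library far from the other 3 by Dixon's criterion, where chance gives about 1 in 20. In 20 of them the library was the highest.

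In Cux2 KO female replicate 1, Sox17 was at 1.78 CPM (0.365 to 0.497 in the others) and Atp13a5 at 2.20. In Cux2 KO male replicate 3, Emcn was at 0.710 CPM, Abcb1a, an efflux pump of the barrier, at 2.13 and Foxq1 at 0.781. Pltp, a phospholipid transfer protein, was at 33.8 CPM in Cux2 KO male replicate 1 (8.59 to 11.8 in the others). The reading at the low end was Anpep at 0.995 CPM in Cux2 KO female replicate 3.

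Among Cux1 KO females, replicate 1 had Esam at 3.76 CPM and Foxq1 at 0.330, replicate 2 had Slco1a4 at 0.186 and Tagln at 0.621, and replicate 4 had Tie1 at 1.03, Atp13a5 at 0.362 and the summed mural members at 119 CPM (96.7 to 99.4 in the others). Among Cux1 KO males, Mfsd2a was at 32.9 CPM in replicate 2, and Pdgfrb at 37.3 and Atp13a5 at 0.368 in replicate 3.

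In the WT, Pecam1 was at 2.94 CPM in female replicate 2, Atp13a5 at 0.126 in female replicate 3 and 0.629 in male replicate 1, and Tagln at 0.361 in female replicate 4. Several of these stand against libraries at 0.

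Ly6c1 went in opposite directions in Cux2 KO females and males at P4, with a log2FC of 2.81 and -1.39 against WT and no overlap in either sex. The interaction had an adjusted p of 0.554 in edgeR and of 0.000127 in DESeq2.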

How the results depend on the processing

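Of 1051 alternative values of the log2FC of called members, 994 kept the direction and the call, 57 kept the direction and lost the call, and none reversed. Of the 55 calls behind these values, 24 came from P4 against E19 in the WT and 25 from the same step in the Cux2 KO. Of 396 alternative counts of members called, 358 stayed within 1.5-fold. These include counts that were 0 and stayed 0, and most comparisons had no member called. DESeq2 without its prior called 7 members for sex in the WT at P4 and 4 at P7, 16 for Cux1 KO against WT at P4, 2 for Cux2 KO against WT in E19 females, 5 in P4 females and 1 with both sexes at P4, 16 for Cux2 KO against Cux1 KO, 2 for P7 against P4, 3 for the interaction of Cux2 KO and sex at P4 and 1 for that of stage and genotype. With its prior it called 6 for sex at P4, 10 for Cux1 KO at P4, 1 and 3 for Cux2 KO in E19 and P4 females, 13 for Cux2 KO against Cux1 KO and 2 for P7 against P4. One fit for all P4 groups called 12 for Cux1 KO against WT and 10 for Cux2 KO against Cux1 KO. Without a filter, 4 were called for Cux2 KO in E19 females and 0 for Cux2 KO against Cux1 KO. DESeq2's size factors in edgeR gave 2 for P7 against P4. Leaving out each library gave 0 to 8 members for Cux1 KO against WT at P4, 0 to 19 for Cux2 KO against Cux1 KO, 0 to 2 for P7 against P4 and 0 to 1 for the interaction of stage and genotype. The fits without a Cux1 KO P4 library hold 1, assumed to vary like the other group. The cause was not tested.

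Replicate numbers did not pair the samples. Same-numbered libraries had mean correlations of -0.0524 to 0.191, and no comparison with 3 or more pairs had every pair over 0.1. As a replicate block, the number left 0 members called for Cux2 KO against Cux1 KO, gave 2 for P7 against P4, took the call from Tek in the WT and Erg in the Cux2 KO between E19 and P4, and took no other call. Depth limits the low members: in the Cux1 KO males at P4, 3 counts stand for 0.153 and 0.074 CPM.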

Other observations

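The Cux1 KO males at P4 also lacked reads of genes outside the vessel wall. Beside Cux2 KO males of the same age, 6 of 10 ependymal markers were lower in the Cux1 KO by edgeR. Of all genes tested, 2.98% differed in either direction, and the smallest adjusted p was 0.0491 in edgeR, close to the threshold. Among these markers, the ciliogenesis factor Foxj1 was at a mean of 24.8 CPM in the Cux2 KO and 0 in the Cux1 KO. Rsph1, a gene of the ciliary radial spoke, was at 79.1 and 0.025 CPM. Of the microglia markers 3 of 10 were lower, including P2ry12, the purine receptor of resting microglia, at 15.2 and 0.050 CPM. The neuronal splicing factor Rbfox3 was higher in the Cux1 KO, at 117 against 30.7 CPM. The summed erythroid markers, which include haemoglobin genes, were at 0.561 and 440 CPM in the 2 Cux1 KO libraries. The library with the lower erythroid sum was replicate 1, which also had more members at 0.

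In the WT, 9 of 10 microglia markers rose between P4 and P7, while 2.29% of all genes changed in either direction. Among the vessel members 1 of 35 rose, which is near that share.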
